A study of Arabidopsis thaliana with 24 samples.

Results

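The response of roots of the J1721 cross to abscisic acid (ABA) was followed across 21315 genes in 6 of the 24 RNA sequencing libraries of the series, 3 from ABA-treated and 3 from mock-treated seedlings. The libraries were taken by their labels: Arabidopsis thaliana F1 seedlings from the UAS::abi1-1 line crossed to the enhancer trap line J1721, aged 5 days and moved for 8 h to plates with 1 µM ABA or to mock plates. The other crosses of the same transgene line were C24, which brings no driver, J0571 and Q0990, each with 3 ABA and 3 mock libraries. Each library came from root samples of 1 cm, with 50 to 100 seedlings pooled, grown under 16 h of light a day. All 4 crosses, controls included, carried the transgene. The labels name no cells for the J1721 driver, and none were assigned to it here. Whether the pools of a group were sown separately is not stated, so p-values here cover only the variation among pools, which may be technical. In whole roots a fall in the number of cells of a type and a fall in RNA per cell cannot be told apart.

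ABA is a hormone of drought and seed dormancy. Its receptors, the PYR1/PYL proteins, bind ABA and then hold back the PP2C phosphatases, of which ABI1 is the best known. This frees the SnRK2 kinases to phosphorylate bZIP transcription factors, which act on promoters that carry the ABA-responsive element (ABRE). The abi1-1 protein cannot be held back by the receptors, so cells that make it respond poorly to ABA. In roots ABA is known to slow growth, to add suberin to the endodermis and to alter the forming xylem. An enhancer trap line makes the yeast activator GAL4 in its own pattern of cells, and GAL4 switches on the UAS transgene there.

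Depth overlapped between ABA and mock libraries, with ABA library 1 the deepest. The 3 J1721 ABA libraries held 61481393, 38651595 and 39449431 counts, and the 3 mock libraries held 41571614, 46280421 and 53015277. On a principal component analysis of the 6 libraries, the first component held 66.7% of the variance and set the ABA libraries, at -39.1, -61.2 and -55.8, apart from the mock libraries, at 55.6, 51.5 and 49. The second held 10.8%, and mock library 1 lay at 30.8 on it, against -16.8 and -19.4 for the other mock libraries. ABI1 had 269 CPM (counts-per-million, on normalized library sizes), 396 CPM and 412 CPM with ABA, against 102, 104 and 104 CPM in mock libraries, a log2 change of 1.79 ± 0.12 (SE here and throughout). These counts hold the native gene and the transgene together, so they do not show where or how strongly the driver worked.

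ABA changed a large part of the root transcriptome of the J1721 cross, and more genes rose strongly than fell strongly. Of the 21315 genes tested, 6089 were called at an adjusted p under 0.05. Every call below is from the quasi-likelihood test of edgeR, with p-values adjusted over all genes by Benjamini and Hochberg's method. The called genes were 28.6% of those tested, with 3377 higher (15.8%) and 2712 lower (12.7%). At least 2-fold changes (a log2 change of 1 or more in size) were seen for 1049 of the higher and 516 of the lower genes, and changes of at least 8-fold (3 on the log2 scale) for 213 and 61. The median log2 change was 0.63 over the higher genes, -0.49 over the lower genes and -0.01 over all genes tested. The ABA and mock libraries did not overlap for 41.7% of all genes tested. The 404 genes raised by at least 2 on the log2 scale took 1.4, 1.82 and 1.7% of the counts with ABA, against 0.222, 0.242 and 0.252% in mock libraries.

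ABA library 1 showed a smaller response than the other ABA libraries. Of 373 genes raised by at least 2 on the log2 scale and counted in every ABA library and in mock libraries, 238 had their smallest change in ABA library 1, against 51 in library 2 and 84 in library 3. Their median log2 ratio to the mock mean was 2.68 in library 1, 3.15 in library 2 and 3.02 in library 3. The 100 matching genes lowered by at least 2 gave medians of -2.4, -3.11 and -2.92. Without ABA library 1, 5493 genes were called, and without mock library 1, 5443.

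The 12 largest rises included 3 genes of late embryogenesis abundant (LEA) proteins, which protect drying tissue. LEA7, the most abundant of them with ABA, had 687, 986 and 876 CPM with ABA, against 0.167, 0.106 and 0.222 CPM in mock libraries. It rose by 12.29 ± 0.28 on the log2 scale (adjusted p = 1.27e-19) to a place among well-expressed root genes. RD29B, a marker gene of the ABA response, had 283, 484.5 and 374 CPM with ABA, against 0.405, 0.234 and 0.388 CPM in mock libraries, a log2 change of 10.11 ± 0.34. The ABA and mock libraries of both genes lay far apart.

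Some of these genes had almost no counts without ABA. AT3G17520, another gene of the LEA family, had 79.1, 161.9 and 130.3 CPM with ABA and 2 counts in all over the mock libraries, a ratio of 8354 with a 95% counting interval of 2312 to 68990. HSP22.0, a small heat shock protein gene, had 15.7, 44.4 and 30.6 CPM with ABA, against 0, 0.0213 and 0.0185 CPM in mock libraries, a ratio of 2001 with an interval of 553.5 to 16530. AT5G50360, which encodes a protein with a von Willebrand factor A domain, had 3.36, 16.2 and 22.9 CPM against 0, 0.0213 and 0.0185 CPM, a ratio of 893.5 with an interval of 247 to 7384. RD20, which encodes the lipid droplet protein caleosin, had 8.45, 21.5 and 11.2 CPM with ABA and no count in any mock library. Against a floor of 3 counts over the mock group, it was at least 615-fold higher. AT1G27461 and AT4G33467, which the reference describes as uncharacterized proteins, also had no counts in mock libraries and were at least 202.5-fold and 204.3-fold higher. In all, 31 of the genes called higher, 0.918% of them, had no count in any mock library. Intervals and floors cover counting error only.

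The others of the 12 largest rises had more counts in mock libraries. HAI2 and HSFA6A still had very few, with some mock libraries as low as those of HSP22.0. HAI2, a PP2C phosphatase gene, had 5.29, 25.7 and 30.6 CPM with ABA, against 0.0238, 0.0213 and 0.185 CPM in mock libraries, and rose by 7.89 ± 0.76. HSFA6A, a heat shock transcription factor gene, had 4.33, 17.9 and 12.1 CPM against 0.119, 0.0213 and 0.0185 CPM and rose by 7.78 ± 0.74. ABA library 1 was the lowest of the ABA libraries for both, and still above every mock library. BGLU24, a beta-glucosidase gene, was even across libraries, with 90.1, 88.8 and 95.9 CPM against 0.523, 0.51 and 0.259 CPM, and rose by 7.76 ± 0.2. AT3G02480, also of the LEA family, had 175, 314.5 and 263 CPM against 1.52, 1.32 and 0.868 CPM, a log2 change of 7.68 ± 0.27.

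The 12 largest falls were in genes of several kinds, among them 2 GDSL lipase genes, 2 glucosinolate genes and genes of transporter families. GLIP2, a lipase gene, had 0.89, 0.238 and 0.548 CPM with ABA, against 19.3, 22.2 and 21.9 CPM in mock libraries, and fell by 5.14 ± 0.27 on the log2 scale. EARLI1, a gene of the lipid transfer protein family, had 6.99, 0.898 and 1.54 CPM against 93.3, 68.7 and 58.9 CPM and fell by 4.43 ± 0.56. CYP83A1, a cytochrome P450 gene of aliphatic glucosinolate synthesis, had 3.9, 0.634 and 0.548 CPM against 58.9, 28.6 and 30.9 CPM and fell by 4.38 ± 0.61. ABA library 1 was the highest of the ABA libraries for all of these, and mock library 1 the highest mock library for EARLI1 and CYP83A1, yet no ABA library reached the level of a mock library. AT5G38940, which encodes a protein of the cupin family, varied least among the falls, at 2.47 ± 0.667 CPM with ABA against 26.9 ± 1.3 CPM in mock libraries (SD, n = 3 each), a log2 change of -3.42 ± 0.16. The remaining falls included AT3G27950, another GDSL lipase gene, at -4.33, the peptide transporter gene PTR3 at -3.83 and the sugar and polyol transporter gene PMT6 at -3.59. The others were AT1G78460 at -3.49, AT3G20360 at -3.44, AT3G43630, of the vacuolar iron transporter family, BCAT4 at -3.16 and AT2G43620 at -3.11.

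**Figure D1:**
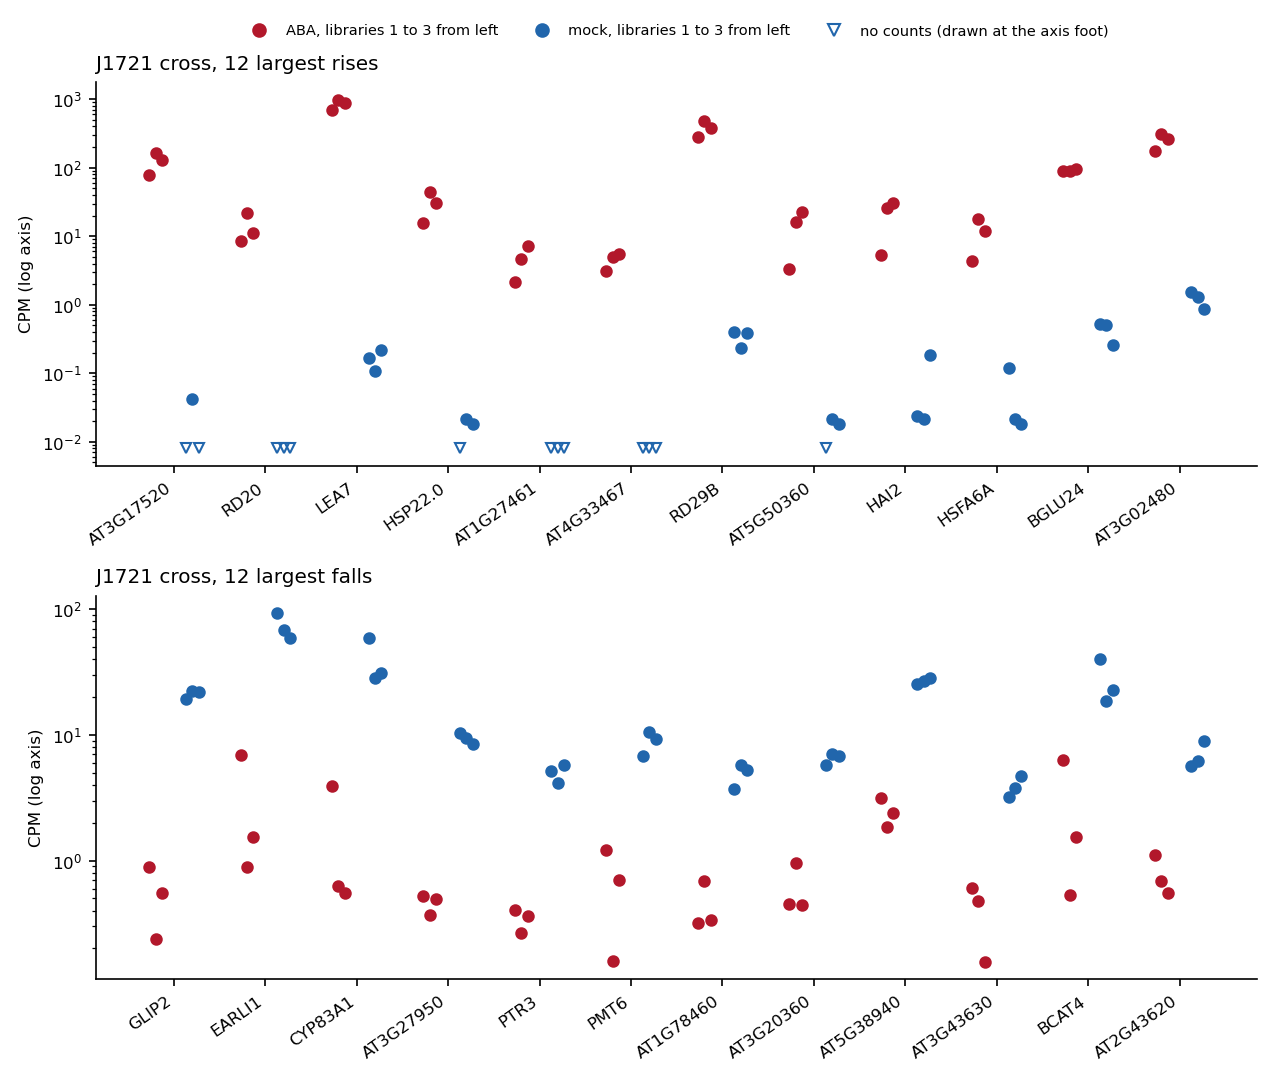
CPM (log axis) of the 12 genes with the largest rises and the 12 with the largest falls in the J1721 cross, with each ABA library in red to the left of each mock library in blue. Open triangles at the foot of the axis mark libraries with no counts; no gene shown has overlapping ABA and mock libraries, which its choice required.

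The ABRE was searched for in the promoters of the genes that changed most. The 250 bases before each gene's start in the RefSeq annotation of assembly TAIR10.1 were searched on both strands for ACGTGGC or ACGTGTC. Of the 12 largest rises, 6 had a match, and of the 12 largest falls, 0. Over all promoters the share was 6.39%, so 0 of 12 is no contrast with it. The mean GC content was 39% for promoters of the rises and 29.3% for those of the falls, against 31.5% over all promoters. Its part in the difference was not tested. The stretches of 60 bases below show those 6 promoters, each 5′ to 3′ on the gene's strand with ABRE matches on either strand in capitals (GCCACGT is ACGTGGC read on the other strand). In that order the nearest match lies 93, 179, 185, 63, 10 and 40 bases before the gene's start.
AT3G17520, chr3:6000507-6000566, minus strand: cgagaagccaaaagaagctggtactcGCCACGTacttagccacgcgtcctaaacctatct
LEA7, chr1:19619519-19619578, plus strand: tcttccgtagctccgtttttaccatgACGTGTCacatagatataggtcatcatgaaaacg
AT1G27461, chr1:9539179-9539238, minus strand: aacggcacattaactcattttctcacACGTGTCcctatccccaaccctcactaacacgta
AT4G33467, chr4:16102250-16102309, minus strand: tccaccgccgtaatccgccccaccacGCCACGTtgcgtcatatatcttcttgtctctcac
RD29B, chr5:21236961-21237020, plus strand: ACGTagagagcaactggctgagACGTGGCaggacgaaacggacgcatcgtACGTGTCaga
AT5G50360, chr5:20506361-20506420, minus strand: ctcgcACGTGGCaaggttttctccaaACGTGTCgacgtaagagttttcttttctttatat
RD29B and AT5G50360 hold more than 1 match, and the capitals at the left end of the RD29B stretch belong to a match that begins before it.

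Across all genes the share with an ABRE followed the size of the rise. It was 22% of 209 promoters of genes raised by at least 3 on the log2 scale. It was 14.5% of 1031 raised by at least 1, those 209 included, and 11% of 2316 raised by less. It was 5.11% of 509 promoters of genes lowered by at least 1, 5.26% of 2185 lowered by less, 6.45% of 14647 tested and not called, and 6.39% of all 27443 promoters of this length. In the LEA and dehydration list described below, 10 of 26 promoters held one. The dehydration-responsive element (DRE, ACCGAC or GCCGAC) was in 12.4% of promoters of the genes raised by at least 3 and in 7.09% of all promoters. The site II element (TGGGCC), known from promoters of genes of growing cells, was in 7.66% of the promoters of genes raised by at least 3, in 5.3% of those lowered by at least 1 and in 18% of those not called. These are matches of letters, not measured binding sites.

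**Figure D2:**
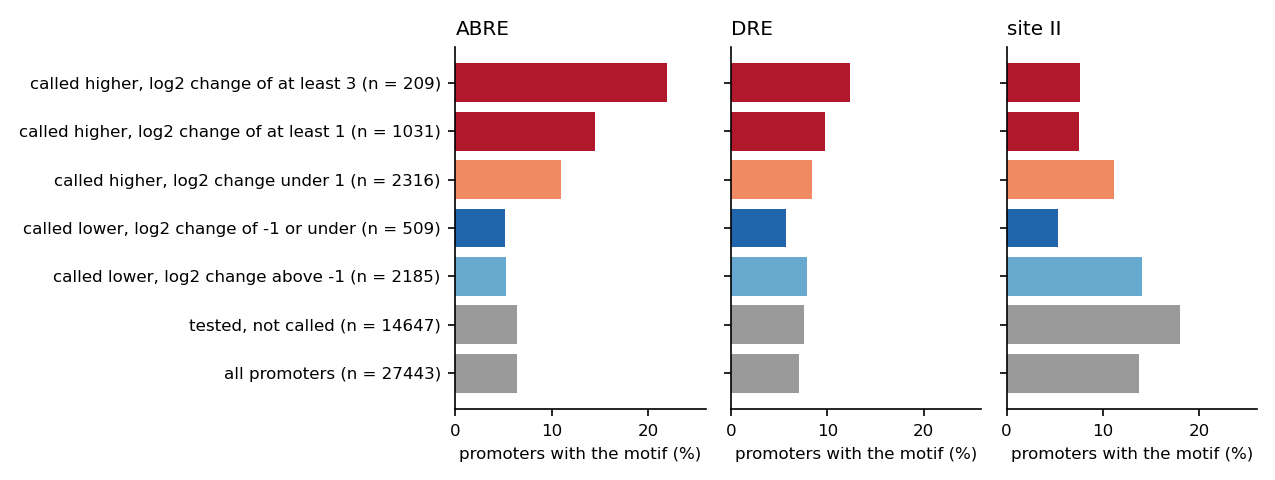
Percent of promoters (250 bases before the RefSeq start) with an ABRE, a DRE or a site II element in each class of response of the J1721 cross. The ABRE share runs from 22% in the genes raised by at least 3 on the log2 scale to 5.11% in those lowered by at least 1, with 6.45% in genes not called. Genes raised by at least 3 are also counted among those raised by at least 1.

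Genes of known function were followed in 45 lists with 553 members, of which 522 passed the filter on low counts. Their counts read against 15.8% of all genes called higher and 12.7% called lower. The LEA, dehydrin and dehydration list, whose proteins protect membranes and other proteins in drying cells, had 22 of 25 tested members higher and 0 lower, with a median log2 change of 3.03. The most abundant, the dehydrin gene COR47, had 3340, 3611 and 3533 CPM with ABA, against 1263, 1363 and 1297 CPM in mock libraries, and rose by 1.42 ± 0.08. RAB18, a dehydrin gene, had 26.4, 43.6 and 33.4 CPM against 0.666, 0.191 and 0.517 CPM and rose by 6.24 ± 0.34. LEA4-5 rose by 6.42 ± 0.31 and RD29A, a dehydration gene related to RD29B, by 3.03 ± 0.13. HIRD11, a dehydrin gene at 739, 643 and 685 CPM against 793, 805 and 823 CPM, was not called (adjusted p = 0.0793), and neither were RD22 and ERD7. COR15A and COR15B, and KIN1 and KIN2, are near-identical neighbours whose reads may have been shared.

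**Figure D3:**
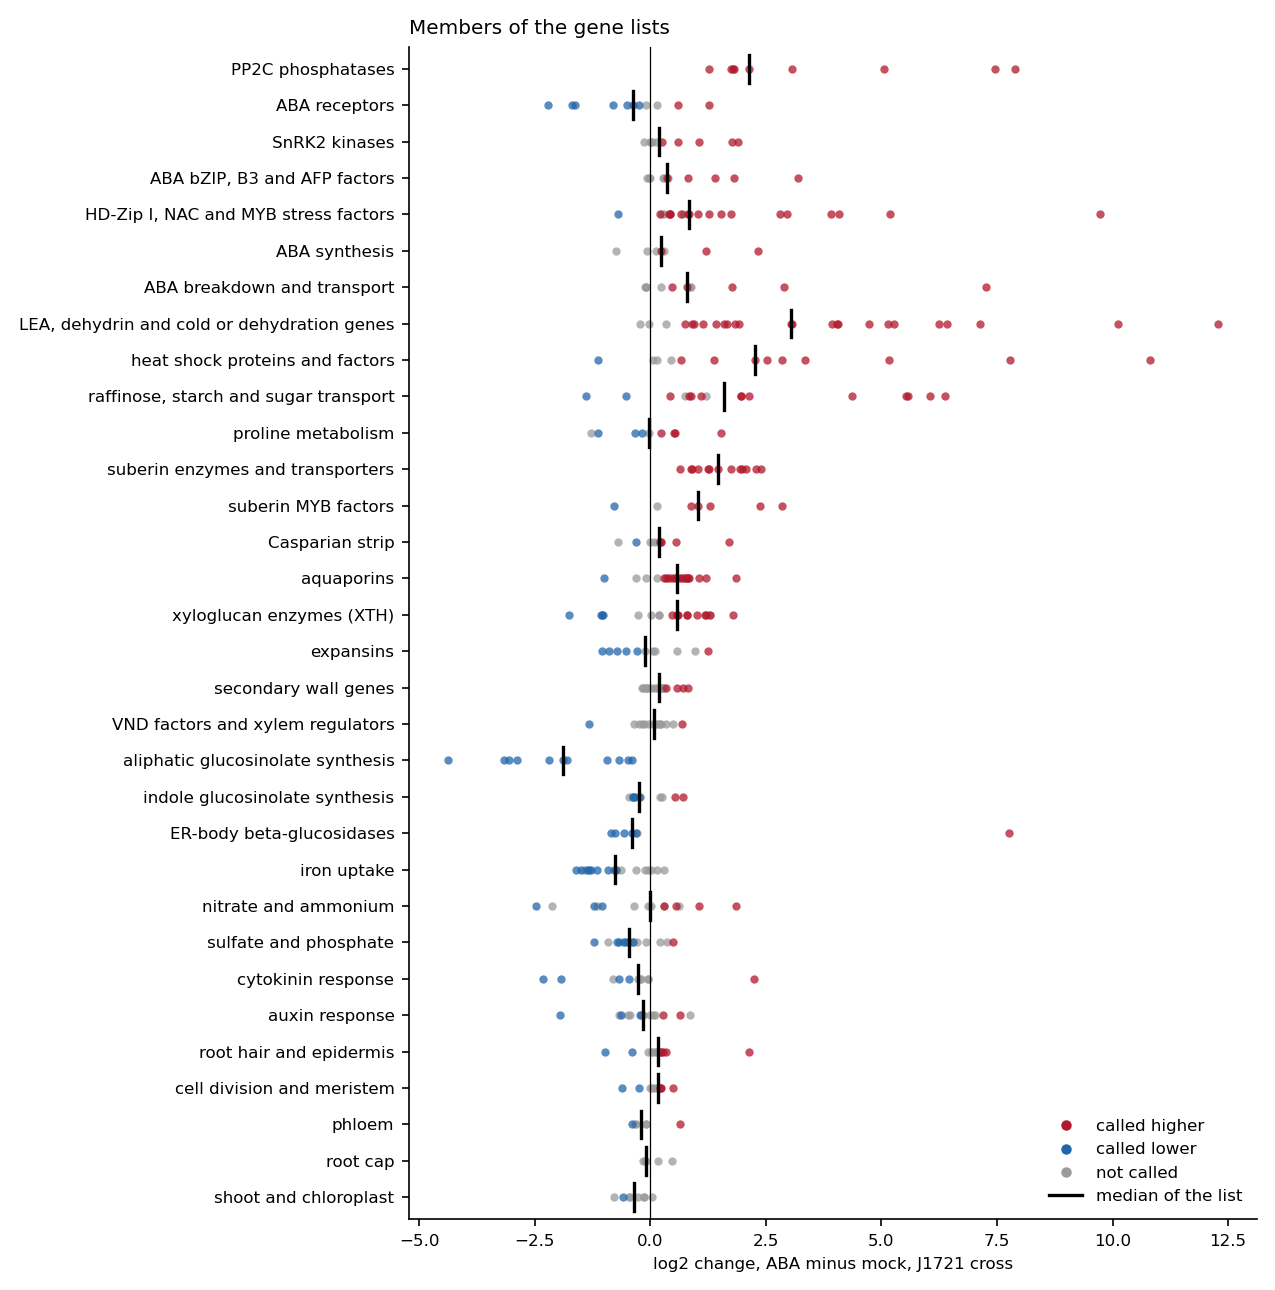
Log2 change of each tested member of the gene lists in the J1721 cross, in red where called higher, blue where called lower and grey where not called, with the list's median as a black bar. Members with no counts in mock libraries, NAC019 among them, are drawn at their fitted values and not at a bound. The medians of the LEA, PP2C and suberin lists lie to the right of 0 and that of the aliphatic glucosinolate list to the left.

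The core of the ABA pathway moved in opposite directions at its ends. All 9 tested PP2C genes, whose products switch the pathway off, rose, by 1.27 to 7.89 with a median of 2.13. HAI1 had 53.3, 187 and 195 CPM with ABA, against 3.52, 3.83 and 5.67 CPM in mock libraries, a log2 change of 5.05 ± 0.42. HAI3 rose by 7.45 ± 0.68, ABI2 by 3.06 ± 0.23 and HAB2, the smallest rise, by 1.27 ± 0.1. ABA library 1 was the lowest of the 3 ABA libraries for every one of these 9 genes, and still above each mock library. Of the 14 receptor genes 11 were tested, with 7 lower and 2 higher. PYL6 had 14.7, 13.1 and 10 CPM with ABA, against 56.6, 63.5 and 55.9 CPM in mock libraries, and fell by 2.21 ± 0.13. PYL4 fell by 1.7 ± 0.13, PYL5 by 1.62 ± 0.16, PYR1 by 0.82 ± 0.07 and PYL8 by 0.5 ± 0.08. The call of PYL3, at 1.7, 3.27 and 1.75 CPM against 0.857, 1.02 and 0.868 CPM, was lost without ABA library 2 (1 receptor gene higher).

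The kinases and transcription factors below the receptors changed in part. Of 10 SnRK2 kinase genes 5 rose and none fell: SNRK2.7 by 1.89 ± 0.1, SNRK2.9 by 1.77 ± 0.15, OST1, the kinase best known from guard cells, by 1.04 ± 0.08, and SNRK2.10 by 0.6 ± 0.1. SNRK2.2, a kinase of seed and root ABA signalling, lay at 131, 117 and 122 CPM with ABA and at 119, 128 and 121 CPM in mock libraries. Of 11 tested bZIP, B3 and AFP genes 5 rose. They included the bZIP genes ABF2, by 1.4 ± 0.13, and ABF3, by 0.82 ± 0.09, and the genes AFP1, by 3.2 ± 0.23, and AFP3, by 1.82 ± 0.14, whose products repress ABA responses. ABI5, the bZIP factor of seeds, was not called at 2.87, 3.8 and 3.5 CPM against 2.52, 2.74 and 2.48 CPM, and ABI4 had no counts. Among 21 stress factor genes of the HD-Zip I, NAC and MYB families 17 rose and 1, HB16, fell. HB7 had 122, 231 and 200 CPM against 20.3, 26.4 and 24.9 CPM and rose by 2.95 ± 0.2. MYB102 rose by 5.19 ± 0.47, HB12 by 3.91 ± 0.47 and RD26 by 2.8 ± 0.25, and NAC019, with no counts in mock libraries, was at least 100.9-fold higher.

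Genes that make ABA and genes that break it down both rose. NCED3, which encodes the enzyme that commits carotenoids to ABA, had 27.9, 37 and 47.8 CPM with ABA, against 7.16, 7.7 and 7.5 CPM in mock libraries, and rose by 2.33 ± 0.16. ABA1, an earlier enzyme of the path, rose by 1.21 ± 0.13, and ABA2 lay at 9.61, 11.3 and 10.9 CPM against 11.3, 10.7 and 11.4 CPM. In all 3 of 7 synthesis genes rose. The ABA hydroxylase gene CYP707A1 had 266, 345 and 382 CPM against 50.5, 43.5 and 40 CPM, a log2 change of 2.89 ± 0.19. Its relative CYP707A3 rose by 1.77 ± 0.27, the exporter gene ABCG25 rose by 0.8 ± 0.12, and CYP707A2, with no mock counts, was at least 19.69-fold higher. Of 11 tested breakdown and transport genes 5 rose and none fell.

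Most sugar and heat shock genes rose, and proline genes went both ways. In the raffinose, starch and sugar transport list 12 of 16 genes rose and 2 fell (1 without ABA library 2), with a median of 1.59. SWEET15, a sucrose exporter gene, had 38.2, 50.7 and 45.7 CPM with ABA, against 0.571, 0.574 and 0.48 CPM in mock libraries, and rose by 6.37 ± 0.41. SWEET11 rose by 6.05 ± 0.52, and the galactinol synthase genes GOLS4 and GOLS2, which feed raffinose synthesis, rose by 5.57 ± 0.37 and 5.53 ± 0.66. The vacuolar sugar transporter gene ESL1 rose by 2.13 ± 0.14 and the sucrose synthase gene SUS3 by 1.97 ± 0.1. In proline metabolism P5CS1, the rate-limiting synthesis gene, rose by 1.53 ± 0.08 and the catabolic gene ERD5 fell by 1.12 ± 0.14; the list had 4 of 9 higher and 3 lower, or 1 lower without ABA library 1 or mock library 3, with a median of -0.02. Of 13 tested heat shock genes 9 rose and 1 fell, with a median of 2.26. HSP17.6A had 8.46, 13.4 and 11.6 CPM against 0.309, 0.276 and 0.333 CPM, and HSFA6B had 92.3, 283 and 362 CPM against 21.6, 24.5 and 25.8 CPM. HSP101, the disaggregase of heat stress, lay at 41.7, 39.9 and 40.6 CPM against 32.8, 43.1 and 34.1 CPM and was not called.

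The genes of suberin, the lipid barrier laid down on endodermal cells, rose throughout. All 13 tested enzyme and transporter genes were called higher under every alternative run, with a median of 1.46. GPAT5, an acyltransferase gene of suberin monomers, had 242, 252 and 234 CPM with ABA, against 60, 60 and 63.5 CPM in mock libraries, and rose by 1.99 ± 0.11. ASFT, which adds ferulate to suberin, had 915, 950 and 891 CPM against 225, 241 and 254 CPM and rose by 1.94 ± 0.09. ABA library 1 lay between the other ABA libraries for both. GPAT7 rose by 2.39 ± 0.15 and the transporter gene ABCG6 by 2.28 ± 0.12, while ABCG20 rose by 0.65 ± 0.11. Of the 7 MYB factor genes that control suberin 5 rose, MYB41 by 2.85 ± 0.3 and MYB107 by 2.37 ± 0.13 the most. MYB39, of the same family, fell by 0.78 ± 0.14, and MYB92 was not called. An ABRE was in 0 of 14 promoters of the enzyme and transporter genes. Since 6.39% of all promoters held one, so few promoters cannot show a lack of it.

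The Casparian strip, another barrier of the same cells, had a higher summed level of its 10 genes, at 691.5, 720.9 and 689.4 CPM with ABA, against 557.3, 591.2 and 552 CPM in mock libraries. CASP5 had 63.6, 88.5 and 79.4 CPM with ABA, against 16.9, 28.6 and 25.2 CPM in mock libraries, and rose by 1.71 ± 0.2. CASP2 lay at 53.1, 50.4 and 51.2 CPM against 51.8, 54.2 and 48.5 CPM, and the master regulator MYB36 at 21, 21 and 21.5 CPM against 18.5, 23.5 and 18.3 CPM. The list had 4 of 10 higher and 1, CASP4, lower, with a median of 0.19, but only 2 higher without ABA library 2, ABA library 3 or mock library 3. Of 7 ground tissue regulator genes 2 fell, MGP by 0.53 ± 0.08 and JKD by 0.33 ± 0.08, and SHR and SCR were not called.

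Water channel genes rose and cell wall genes were mixed. Of 21 aquaporin genes 16 rose and 1 fell, with a median of 0.57. TIP2;3, a channel of the vacuole membrane, had 202, 239 and 235 CPM with ABA, against 53.9, 74.4 and 58.4 CPM in mock libraries, and rose by 1.85 ± 0.13. PIP1;2, a channel of the plasma membrane, had 1203, 1354 and 1461 CPM against 729, 767.8 and 763 CPM and rose by 0.83 ± 0.08. NIP1;1 fell by 1.01 ± 0.1. PIP2;2 and PIP2;3 are near-identical neighbours, so their split is uncertain. Of 20 XTH genes, whose enzymes cut and rejoin xyloglucan, 11 rose, XTH23 by 1.78 ± 0.17 and XTH19 by 1.29 ± 0.09 the most, and 4 fell, XTH31 by 1.75 ± 0.21 the most. Of 11 genes for expansins and their relatives, which loosen walls, 5 fell, among them EXPB3 by 1.05 ± 0.19 and EXPA4 by 0.89 ± 0.17. EXLA2 rose by 1.24 ± 0.16, as the only member called higher, where 2 were called without mock library 3.

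Genes of aliphatic glucosinolates, the sulfur-rich defence compounds made from methionine, fell together. All 11 tested members were lower, by 0.39 to 4.38 with a median of -1.89, and 10 or 11 were called with any 1 library left out. BCAT4, the first enzyme of chain elongation, had 6.33, 0.528 and 1.54 CPM with ABA, against 40, 18.7 and 22.6 CPM in mock libraries, and fell by 3.16 ± 0.63. MAM1, which extends the chain, fell by 3.05 ± 0.56, the transporter gene BASS5 by 2.18 ± 0.38, and MYB28, the regulator of the path, by 0.93 ± 0.21. Both ABA library 1 and mock library 1 were the highest of their group for BCAT4, CYP83A1, MAM1 and MYB28. CYP79F1 and CYP79F2 are near-identical neighbours; CYP79F2 fell by 2.88 ± 0.45, and CYP79F1 was too low to test. The indole branch, made from tryptophan, was mixed: its regulator MYB34 rose by 0.52 ± 0.08 and UGT74B1, shared by both branches, fell by 0.34 ± 0.09.

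Iron genes and sulfate and phosphate genes fell more often than they rose, and nitrate and ammonium genes went both ways. Of 18 iron genes 9 fell and none rose, with a median of -0.77. IRT1, the iron importer, had 322, 249 and 212 CPM with ABA, against 789, 606 and 563 CPM in mock libraries, and fell by 1.32 ± 0.27. FIT1, the factor that turns it on, fell by 0.92 ± 0.12, F6'H1, which makes the iron-mobilising coumarins, by 1.49 ± 0.16, and NAS1, of nicotianamine synthesis, by 1.36 ± 0.21. The iron-storage gene FER1, at 44.6, 55.9 and 44.2 CPM against 49.6, 59.6 and 69.3 CPM, was not called. AMT1;2, an ammonium transporter gene, had 40.2, 31.1 and 34.6 CPM against 206, 207 and 179.5 CPM and fell by 2.48 ± 0.15, and AMT1;3 fell by 1.04 ± 0.09. The nitrate loader gene NRT1.5 of the stele fell by 1.22 ± 0.22, while the nitrate reductase genes NIA1 and NIA2 rose by 1.86 ± 0.49 and 1.05 ± 0.24. Of 14 tested nitrate and ammonium genes 4 rose and 3 fell, with a median of -0.01. Of 16 sulfate and phosphate genes 6 fell, APR3, of sulfate reduction, by 1.21 ± 0.12 and PHO1, of phosphate export to the xylem, by 0.73 ± 0.11. SULTR4;1, which releases sulfate from the vacuole, rose by 0.48 ± 0.09.

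Channel genes went both ways. GORK, an outward potassium channel known from root hairs and guard cells, had 85.4, 94.1 and 86.9 CPM with ABA, against 12.5, 10.2 and 11.1 CPM in mock libraries, and rose by 2.98 ± 0.1. Its relative SKOR, which loads potassium into the xylem, had 4.05, 3.41 and 3.31 CPM against 6.71, 8.93 and 8.87 CPM and fell by 1.18 ± 0.19. SLAH1, an anion channel subunit gene of the stele, fell by 2.57 ± 0.51. The list had 5 of 13 higher and 2 lower. The beta-glucosidases of ER bodies, which root cells store against attack, ran lower: PYK10, the most abundant, had 13350, 13340 and 12160 CPM against 14880, 17760 and 18650 CPM and fell by 0.4 ± 0.1. In that list 5 of 7 fell, NAI2 by 0.75 ± 0.09 and PBP1 by 0.85 ± 0.09, and BGLU24 alone rose. BGLU21 and BGLU22 are near-identical neighbours.

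Genes of other hormones went both ways, in small numbers. ARR7, a cytokinin response gene, had 4.87, 3.14 and 3.65 CPM with ABA, against 12.2, 19.1 and 14 CPM in mock libraries, and fell by 1.94 ± 0.37, and the cytokinin synthesis gene IPT3 fell by 2.33 ± 0.35. ARR16, of the same family as ARR7, rose by 2.24 ± 0.25. Of 11 cytokinin genes 4 were lower, but 7 without mock library 1 and 2 without mock library 2. GH3.3, which conjugates auxin, fell by 1.95 ± 0.3, and GH3.17 rose by 0.64 ± 0.12. The gibberellin list held the catabolic gene GA2OX6, up by 1.54 ± 0.12, the synthesis gene GA20OX2, up by 1.78 ± 0.22, and GA2OX2, down by 1.48 ± 0.32. VSP2, a jasmonate marker gene, had 4.23, 4.99 and 3.42 CPM against 0.405, 0.404 and 0.628 CPM and rose by 3.12 ± 0.34. It was the largest rise of 11 tested jasmonate genes, of which 3 rose and 2 fell, with a median of -0.01. The morning clock gene CCA1 rose by 2.92 ± 0.28, the most in its list. Of 11 clock genes 3 rose and 1 fell, with a median of 0.09. The call of the fall was lost without ABA library 1 or 3 or mock library 2 or 3.

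Lists for root hairs, division and reactive oxygen went both ways. In the root hair list PRP1, a wall protein gene of growing hairs, had 120.5, 90 and 98.1 CPM with ABA, against 29.8, 19.5 and 21.4 CPM in mock libraries, and rose by 2.13 ± 0.19, and RSL2, a hair growth factor gene, fell by 0.99 ± 0.22. That list had 4 of 14 higher, but 1 without ABA library 1, mock library 2 or mock library 3 and 2 without ABA library 3, and 2 lower, but 1 without ABA library 2, ABA library 3 or mock library 1. The mitotic cyclin gene CYCB1;2 lay at 38.2, 33.1 and 38.3 CPM against 39.6, 32.7 and 34.1 CPM, and CYCD3;1, a cyclin gene of division onset, fell by 0.62 ± 0.12. The division list had 3 of 13 higher and 2 lower, but 0 higher with ABA library 3 or mock library 2 left out and 1 with library 1 of either treatment left out, and 1 lower with library 2 of either treatment, ABA library 3 or mock library 1 left out. The stem cell gene WOX5, at 3.12, 3.27 and 3.05 CPM against 3.07, 3 and 2.83 CPM, was not called. Among 7 catalase and superoxide genes 1 rose, or 2 without ABA library 3, and 3 fell: CAT1 rose by 0.91 ± 0.17 and the superoxide dismutase genes CSD1 and CSD2 fell by 0.5 ± 0.09 and 0.45 ± 0.08. The summed level of the shoot and chloroplast list was 51.04, 68.88 and 52.6 CPM with ABA, against 60.52, 79.89 and 86.15 CPM in mock libraries, and 1 of its 8 tested genes was called lower, or 3 without mock library 1.

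Several genes of the xylem responded less to ABA in the J1721 cross than in the C24 cross, whose transgene has no driver. Xylem vessels form when VND transcription factors and MYB46 turn on cellulose, xylan and lignin genes of the secondary wall. Of 14 tested VND and xylem regulator genes, 1 was called higher and 1 lower with ABA in J1721, with a median of 0.09, against 9 higher and 0 lower in C24, with a median of 0.57. J0571 had 5 of them higher, with a median of 0.49, and Q0990 had 4, with a median of 0.30, and neither had any lower, so both lay between J1721 and C24. Counts of calls in separate crosses do not test a difference between them. In the test of the difference in response, J1721 minus C24, 1 of the 14 regulators was called, MYB46, where 0.169% of all genes were. In C24 34% of all genes were called, 18.6% higher and 15.4% lower. Of 21 secondary wall genes 4 were higher and 0 lower in J1721, with a median of 0.19, against 18 higher and 0 lower in C24, with a median of 0.82. Without mock library 2 of J1721 the regulators gave 2 higher. The wall list gave 17 higher in J0571, where 14.4% of all genes were called higher, and 9.87% lower, with a median of 0.68, and 17 in Q0990, where 17% were called higher, with a median of 0.52.

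The summed level of the 21 wall genes gives the values by library. With ABA it was 668.4, 675.2 and 684.9 CPM in J1721, against 566.2, 609.7 and 630.8 CPM in its mock libraries. In C24 it was 1115, 1243 and 1053 CPM with ABA, against 676.3, 695.5 and 699.4 CPM in mock libraries. The J1721 ABA libraries lay above their own mock libraries, and within or under the range of the C24 mock libraries, while the C24 ABA libraries lay above all others. The J1721 mock libraries were the lowest of the 4 groups. Of the lists of other root cells, phloem and root cap genes overlapped between treatments: the summed level of 6 phloem genes was 80.1, 91.73 and 76.36 CPM with ABA, against 73.71, 87.84 and 97.23 CPM in mock libraries, and that of 5 root cap genes was 44.89, 37.77 and 36.88 CPM against 49.77, 35.72 and 38.22 CPM. Others did not overlap. The root hair and epidermis list summed to 983.5, 757.5 and 834.2 CPM with ABA, against 749.3, 663.3 and 650.7 CPM in mock libraries, and the 7 ground tissue regulators to 196.3, 180.6 and 177.7 CPM against 215.8, 208.8 and 207.7 CPM. Their part in the xylem result was not tested. None of 5 HD-ZIP III genes, which pattern the vascular tissue, was called.

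MYB46, a master switch of the secondary wall, had 6.58, 4.94 and 5.37 CPM with ABA in J1721, against 4.9, 4.59 and 6.02 CPM in mock libraries. In C24 it had 15.3, 16.2 and 13.9 CPM with ABA, against 5.39, 6.45 and 7.84 CPM in mock libraries. The J1721 ABA and mock libraries overlapped, and those of C24 did not. The log2 change was 0.13 ± 0.15 in J1721, 1.2 in C24, 1.01 in J0571 and 0.89 in Q0990. The difference in response, J1721 minus C24, was -1.08 ± 0.21 (adjusted p = 0.0272).

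The 3 cellulose synthase genes of the secondary wall were also called in this difference. CESA7 had 42.2, 45.7 and 39.6 CPM with ABA in J1721, against 32.2, 38.5 and 37.2 CPM in mock libraries. In C24 it had 90, 118 and 95.6 CPM with ABA, against 37.9, 48.8 and 50.8 CPM in mock libraries. The difference in log2 response was -0.9 ± 0.17 for CESA7, -0.83 ± 0.16 for CESA8 and -0.69 ± 0.14 for CESA4. Of the 21 wall genes 7 were called in this difference, where 0.169% of all genes were, or 36, with 16 higher (0.0751%) and 20 lower (0.0938%). The other 4 were COBL4, a gene of cellulose deposition, at -0.9 ± 0.17, CTL2, a chitinase-like gene of the same process, at -0.91 ± 0.18, and the xylan genes IRX9 at -0.76 ± 0.14 and ESK1 at -0.73 ± 0.13. All 7 had a lower log2 change in J1721. The xylem lists were made with earlier results of these data known, so their counts against all genes are no independent test. The calls were near the threshold: among 17 alternatives, MYB46 lost its call in 10, CESA7 in 7, CESA8 in 9, CESA4 in 10, COBL4 and CTL2 in 11, IRX9 in 10 and ESK1 in 4, with no change of sign. The count of 36 was 8 without C24 ABA library 2, 13 without C24 mock library 1, 19 without C24 mock library 3, 17 and 22 without J1721 ABA libraries 1 and 2, and 22, 12 and 11 without J1721 mock libraries 1, 2 and 3. Against the mean of C24, J0571 and Q0990, 3 of the 21 wall genes were called, IRX9, ESK1 and CESA4, where 0.16% of all genes were.

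Some xylem genes were called in J1721. FRA8, of xylan synthesis, had 53.1, 50.8 and 42.1 CPM with ABA, against 25.1, 29.6 and 28.7 CPM in mock libraries, and rose by 0.81 ± 0.12. The lignin laccase gene LAC17 rose by 0.57 ± 0.1 and the xylan gene IRX15 by 0.71 ± 0.17. CESA8 rose by 0.34 ± 0.12, a call lost without ABA library 2 or mock library 1. VNI2, whose product restrains VND7, had 259, 217 and 208 CPM against 130, 142 and 150 CPM and rose by 0.69 ± 0.13. VND6, the master factor of late vessels, had 0.991, 0.264 and 0.626 CPM against 0.975, 1.79 and 2.16 CPM, was called lower at -1.33 ± 0.32, and had overlapping libraries. VND7, its partner in early vessels, had 2.92, 3.54 and 3.18 CPM against 1.69, 2.85 and 2.33 CPM and was not called (adjusted p = 0.0734). The nuclease gene BFN1 and the protease gene CEP1, of cell death, rose by 2.33 ± 0.19 and 4.5 ± 0.49. Their list of 7 vessel cell death genes had 3 higher and 1 lower, or 0 lower without mock library 3. Its median was 0.16 in J1721, against 0.61 in C24, where 4 were higher and 1 lower. Taken gene by gene, the median difference, J1721 minus C24, was -0.19, and none of these genes was called in it. In lignin synthesis 6 of 14 genes were higher and 3 lower, or 4 to 5 higher with any 1 J1721 library left out. CAD5, by 1.2 ± 0.07, and PAL4, by 1.39 ± 0.13, were the largest rises, and FAH1 was the largest fall at -0.91 ± 0.13.

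**Figure D4:**
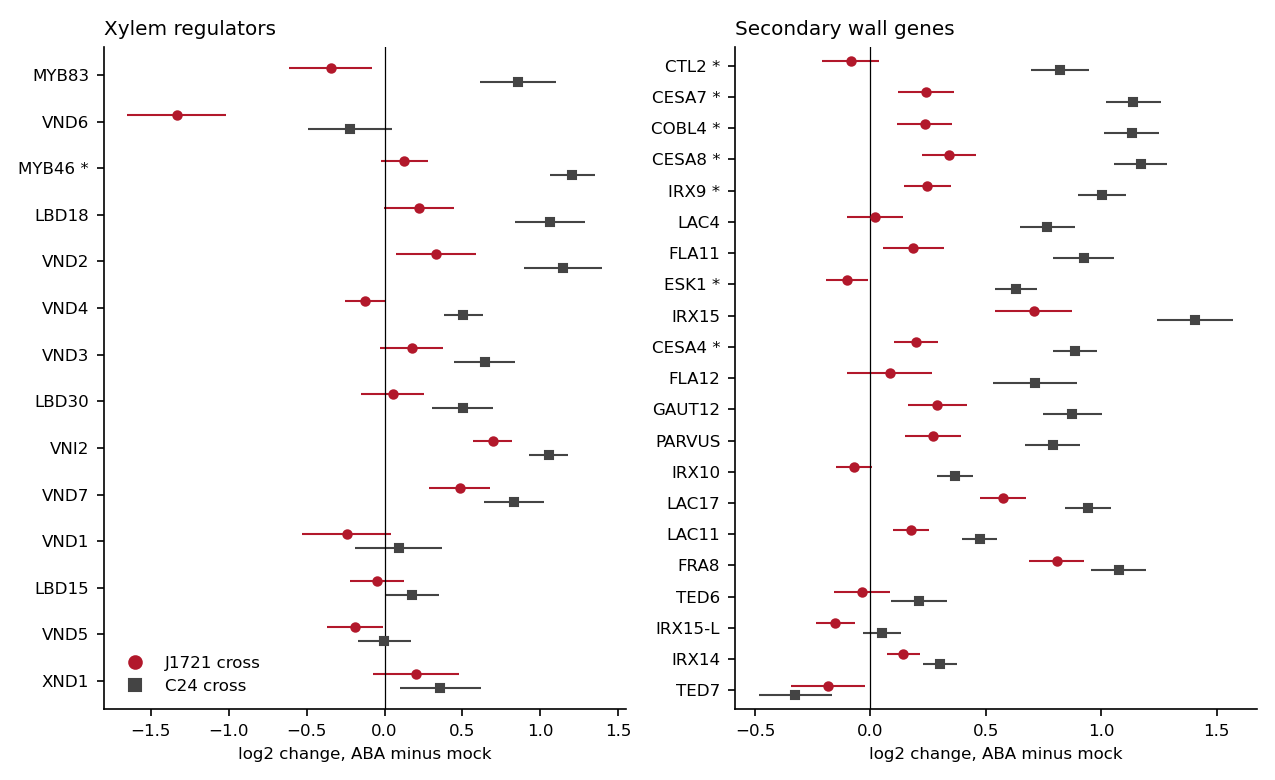
Log2 change with ABA ± SE of 14 xylem regulator genes and 21 secondary wall genes, with J1721 as red circles above C24 as grey squares, and an asterisk where the difference between the crosses was called at an adjusted p under 0.05. J1721 points run from -1.33 to 0.69 for the regulators and from -0.18 to 0.81 for the wall genes, with medians of 0.09 and 0.19. C24 points lie to their right for most genes, with medians of 0.57 and 0.82.

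The promoters of the secondary wall genes were searched in the same way. None of the 21 had an ABRE or a DRE in the 250 bases searched, where 6.39% and 7.09% of all promoters did, too few to show a lack in 21. The MYB46 element known as SMRE (ACCNANN, where the first N is A or T, the second is A or C and the third is C or T) was in 11 of 21, or 52.4%, against 29.4% of all promoters. Like shares were found outside the wall list, with 6 of the 12 largest falls, or 50%, and 7 of 15 aliphatic glucosinolate genes, or 46.7%. The tracheary element motif TERE, known from vessel genes, was in 2 of 21, or 9.52%, against 0.368% of all promoters. CESA4 is shown for its TERE in capitals, 20 bases before the gene's start.
CESA4, chr5:17714330-17714389, plus strand: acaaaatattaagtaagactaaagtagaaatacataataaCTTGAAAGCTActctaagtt

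Another set of genes fell less with ABA in J1721 than in C24. AT1G05700, which encodes a receptor kinase with leucine-rich repeats, had 24.5, 11.8 and 15.4 CPM with ABA in J1721, against 52.9, 49.4 and 39.4 CPM in mock libraries. In C24 it had 1.25, 1.47 and 1.91 CPM with ABA, against 27.2, 45.5 and 44.5 CPM in mock libraries. It fell in both crosses, and the difference, J1721 minus C24, was 3.22 ± 0.36 (adjusted p = 0.000139). Set against the mean of C24, J0571 and Q0990 it was 2.56 ± 0.28 (adjusted p = 5.76e-05), in a comparison which shares the J1721 and C24 libraries and in which 0.16% of all genes were called, or 34, with 20 higher (0.0938%) and 14 lower (0.0657%). That count was 9 without J1721 ABA library 1, 19 without ABA library 3 and 15 without any 1 of the mock libraries. It was 21 without C24 ABA library 2, and 22, 20 and 21 without J0571 ABA library 1, ABA library 2 and mock library 2.

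Several genes beside it had the same kind of pattern. AT5G59680, another receptor kinase gene of this type, had 24.1, 14.3 and 14.4 CPM with ABA in J1721, against 28.3, 31.7 and 30.7 CPM in mock libraries, and in C24 4.72, 3.43 and 4.44 CPM against 27.2, 21.5 and 25.1 CPM. Its difference was 1.78 ± 0.28 from C24 and 1.55 ± 0.23 from the mean of the other crosses. AT5G40590, of the C1 domain family, differed by 1.63 ± 0.24 from C24 and by 1.54 ± 0.19 from that mean. AT2G43140, of the bHLH family, differed by 2.56 ± 0.36 from C24, while its log2 change was -2.24 in J1721, -0.95 in J0571, -2.6 in Q0990 and -4.8 in C24. These 4 genes were called in the difference from C24 under every one of the 17 alternatives. The peroxidase gene AT5G64120 had 290, 172 and 152 CPM with ABA in J1721, against 356, 516 and 616 CPM in mock libraries, and in C24 45.4, 36.1 and 54.6 CPM against 667, 349 and 370 CPM. Its difference of 2.07 ± 0.37 lost its call in 6 of 17 alternatives, among them without C24 ABA library 2, C24 mock library 1, J1721 ABA library 1 or J1721 mock library 2. GSTF14, a glutathione transferase gene, differed by 2.15 ± 0.41 and lost its call in 7.

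The receptor gene PYL6 also fell less in J1721 than in C24. With ABA it kept 14.7, 13.1 and 10 CPM in J1721 and 3.91 ± 0.65 CPM in C24 (SD, n = 3), where the mock libraries had 50.9, 40.7 and 38.6 CPM. The difference of 1.26 ± 0.18 (adjusted p = 0.00366) was called under all 17 alternatives. It was not called against the mean of the other crosses, at 0.44 ± 0.14, since the log2 change was -1.71 in J0571 and -2.79 in Q0990. XTH16 had 23.4, 18.6 and 22.7 CPM with ABA in J1721, against 50.4, 44.3 and 42.1 CPM in mock libraries, and differed from C24 by 0.87 ± 0.15; the adjusted p was 0.0505 without J1721 mock library 3. The peroxidase gene AT5G51890, singled out after its values were seen because it was called in every alternative, had 101, 106 and 105 CPM with ABA in J1721, against 70.4, 72.8 and 74.2 CPM in mock libraries. It rose by 0.52 ± 0.08 in J1721 and by 1.18 in C24, a difference of -0.66 ± 0.11 (adjusted p = 0.0115).

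**Figure D5:**
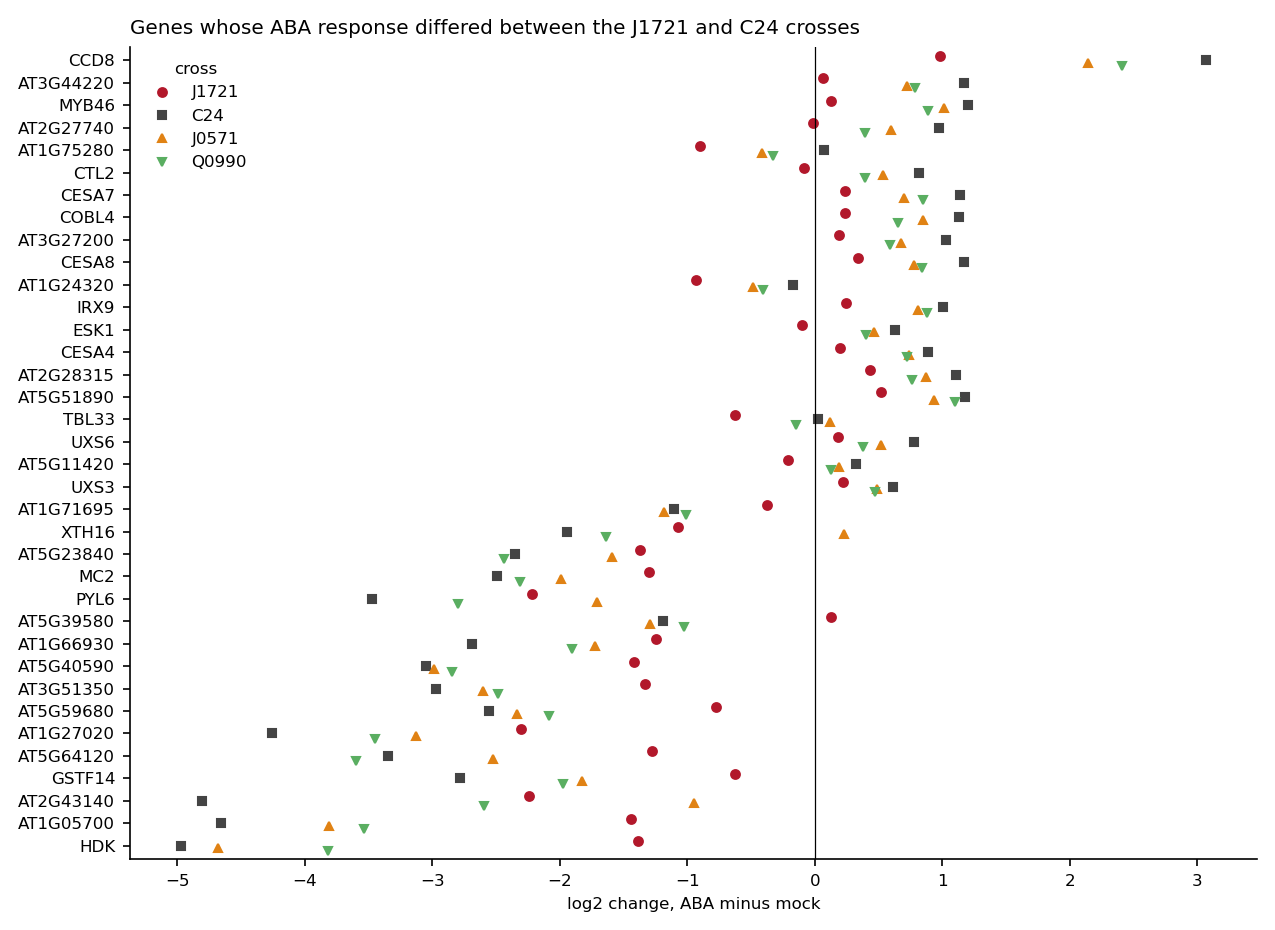
Log2 change with ABA in J1721, C24, J0571 and Q0990 of the 36 genes called in the difference J1721 minus C24. For AT1G05700 the J1721 change of -1.44 lies above those of the other crosses at -4.66, -3.81 and -3.53, and for MYB46 the J1721 change of 0.13 lies below theirs at 1.2, 1.01 and 0.89.

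Several lists with large changes were set beside C24. No gene of the PP2C, LEA, suberin enzyme, heat shock, sugar or aliphatic glucosinolate lists was called in the difference J1721 minus C24, and the list medians were 2.13 and 1.81 for PP2C genes, 3.03 and 2.86 for LEA genes and 1.46 and 1.4 for suberin enzymes in J1721 and in C24. They were 2.26 and 1.45 for heat shock genes, 1.59 and 1.7 for sugar genes and -1.89 and -1.76 for aliphatic glucosinolate genes. The medians of a list can fall on different genes in each cross. Taken gene by gene, the median difference was 0.2 for PP2C, 0.15 for heat shock and 0.12 for suberin enzyme genes. It was -0.07 for LEA, -0.05 for sugar and -0.03 for aliphatic glucosinolate genes. A difference that misses the threshold does not show that these genes responded alike.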

How the data were processed

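RNA was measured in 24 libraries, 6 of them from the J1721 cross. Per the labels' protocols, RNeasy columns and NEBNext Ultra kits were used, with both ends read for 150 bases. What the authors deposited is 1 table of raw gene counts; HISAT2 and HTSeq are the tools in the submitters' processing notes. For versions, genome build, annotation and strand setting the entry is not given in the sources used here. Therefore overlapping, antisense and near-identical genes may not have been told apart. Every count column belonged to a library of the series. Of 34218 features, 32548 matched a RefSeq locus (TAIR10.1) and 10804 had a name there.

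Counts were filtered (filterByExpr), scaled by trimmed mean of M values (TMM) and fitted in R 4.3.3 by edgeR 4.0.16, which loads limma 3.58.1, as a quasi-likelihood model with 8 group means over all 24 libraries, which share the estimate of spread. The contrasts were ABA minus mock in J1721 and the difference of that response from C24 or from the mean of the other 3 lines. P-values were adjusted over 21315 genes, with calls at 0.05. The fit was tested on simulated counts. Tables and promoters were handled with Python 3.11.15, pandas 2.3.3 and scipy 1.17.1. Folds against no counts use a floor of 3 counts over the group.

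Replicates of the J1721 groups differed by more than counting noise, with chi-square over degrees of freedom of 6.79 to 25.5. Libraries were assigned to groups by their labels, while the choice of this cross as a subject, the gene lists and the tests were made with earlier results of these data known. The genes named are the 12 largest rises and falls called without overlap, with a mean log2 CPM over the J1721 libraries of 1 or more, the 6 largest differences in each direction at that level over all libraries, ABI1 and list members. The SMRE and TERE motifs were added after the counts had been seen. Of 560 list entries 7 were dropped because the reference does not give the listed symbol to their locus. Alternatives were DESeq2 1.42.0, relative log expression (RLE) scaling, no filter, the replicate number as a block, fewer libraries in the fit and leaving out each J1721 library in turn. For the differences each library of the other lines compared was also left out, which for the mean of 3 lines was added after seeing the data.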

Additional observations from a re-analysis of the deposited data

Results flagged for a closer look

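The test of the difference in ABA response between crosses called the following genes among the largest by rule. For J1721 minus C24, the log2 differences below 0 were -1.10 for AT3G44220, a gene of the LEA hydroxyproline-rich family, -1.08 for MYB46, -0.99 for AT2G27740, -0.98 for AT1G75280, of the NmrA-like family, -0.91 for CTL2 and -0.90 for CESA7. AT1G75280 fell by 0.9 ± 0.12 in J1721 and had a log2 change of 0.07 in C24. The differences above 0 were 3.22 for AT1G05700, 2.56 for AT2G43140, 2.15 for GSTF14, 2.07 for AT5G64120, 1.95 for AT1G27020 and 1.78 for AT5G59680.

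For J1721 minus the mean of C24, J0571 and Q0990, which uses the same J1721 libraries, the differences below 0 were -0.91 for MYB46, -0.83 for AT3G44220, -0.65 for IRX9, -0.63 for TBL33, a relative of the xylan acetylation gene ESK1, -0.60 for ESK1 and -0.59 for CESA4. TBL33 fell by 0.63 ± 0.09 in J1721, and its log2 change was 0.02 in C24, 0.12 in J0571 and -0.14 in Q0990. Those above 0 were 2.56 for AT1G05700, 2.11 for AT5G49770, another receptor kinase gene with leucine-rich repeats, 1.88 for AT5G64120, 1.57 for GSTF14, 1.55 for AT5G59680 and 1.54 for AT5G40590. The genes named here with a difference above 0 all had a negative log2 change in J1721 and a larger negative one in C24.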

How the results depend on the processing

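The response of J1721 was steady: 6089 genes were called, against 6282 with DESeq2, 6081 with RLE scaling, 5817 with no filter, 6135 with the replicate block, 5607 from the 6 J1721 libraries alone and 5091 to 5493 with 1 J1721 library left out. No called value of a named gene changed sign under any alternative run. The difference J1721 minus C24 was less steady. Its 36 genes (16 higher, 20 lower) became 63 (29 and 34) with DESeq2, 11 (8 and 3) with the replicate block, 15 (9 and 6) from the 12 J1721 and C24 libraries alone, and 8 to 34 (6 to 16 and 2 to 18) with 1 library left out, while RLE scaling gave 36 and no filter 38. The difference from the mean of the other 3 lines, with 34 genes (20 higher, 14 lower), became 56 (27 and 29) with DESeq2, 8 (6 and 2) with the replicate block and 9 to 41 (5 to 26 and 3 to 19) with 1 library of any line left out, with 31 by RLE scaling and 40 with no filter. The cause was not tested, beyond the fewer libraries of the last kind. Whether the replicate numbers pair the libraries was not settled. The deviations of same-numbered ABA and mock libraries of J1721 correlated at 0.097, 0.066 and -0.045 across genes, and not every library correlated best with its own number. In J0571 every library did, at 0.029, 0.065 and 0.066. The values were 0.069, -0.069 and 0.085 in C24, and 0.084, -0.037 and -0.033 in Q0990.

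Of the values of named genes in the J1721 response, 5648 kept their side of the threshold over all alternatives, 186 lost a call and 67 gained one. Of the list counts 908 stayed within 1.5 times and 82 did not. With 3 libraries a group, calls of differences between lines were lost more often: 265 values against C24 and 314 against the mean of the other lines, with 347 and 638 kept. Leaving out C24, J0571 and Q0990 libraries in the last comparison was chosen after seeing the data.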

Other observations

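Further genes had a higher log2 change with ABA in J1721 than in the other crosses. AT5G39580, a peroxidase gene, had 6.52, 4.83 and 6.7 CPM with ABA in J1721, against 5.71, 5.27 and 5.54 CPM in mock libraries, and in C24 1.46, 1.63 and 2.25 CPM against 4.42, 3.92 and 3.88 CPM. Its difference was 1.32 ± 0.27 from C24 and 1.3 ± 0.21 from the mean of the other crosses, and the call against C24 was lost in 12 of 17 alternatives. MC2, a metacaspase gene, fell by 1.3 ± 0.14 in J1721 and by 2.49 in C24, a difference of 1.19 ± 0.2. CYP81F2, a gene of indole glucosinolate modification, had 28.1, 16.4 and 13 CPM with ABA in J1721, against 19.9, 33.6 and 25.9 CPM in mock libraries, and in C24 6.32, 5.91 and 8.17 CPM against 32.4, 19.2 and 20.4 CPM. Its difference was 1.38 ± 0.26 from the mean of the other crosses and was not called against C24 alone, at 1.36 ± 0.32. AT5G39580 and MC2 were chosen after their values were seen.

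Genes of UDP-xylose synthesis, which feeds xylan, were called lower in the difference from C24. UXS3, which makes UDP-xylose, had 213, 216 and 224 CPM with ABA in J1721, against 187, 189 and 183 CPM in mock libraries, and in C24 305, 312 and 294 CPM against 191, 207 and 198 CPM, a difference of -0.39 ± 0.08. UXS6 differed by -0.6 ± 0.12, and both were chosen after their values were seen. Their calls were lost in 13 and 12 of 17 alternatives. CCD8, a gene of strigolactone synthesis, had 2.4, 1.8 and 2.17 CPM against 1.24, 0.999 and 0.998 CPM in J1721, and 3.23, 3.77 and 2.9 CPM against 0.351, 0.577 and 0.231 CPM in C24, a difference of -2.08 ± 0.39 that was lost in 10 of 17 alternatives. It too was chosen after its values were seen.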
